A study of Mus musculus with 17 samples.

Results

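Platelet-derived growth factors (PDGFs) and fibroblast growth factors (FGFs) were followed in mouse vein grafts during the hours after grafting, together with the PDGF receptors. The 10 genes were listed by family and not by a threshold on their values: the PDGF ligands Pdgfa, Pdgfb, Pdgfc and Pdgfd, the receptors Pdgfra and Pdgfrb, and the FGF ligands Fgf1, Fgf2, Fgf7 and Fgf10. Counts were held for 9 of the 10, among 13212 transcript entries in the count tables. Of these, 8 passed the filter on low counts and were tested, among 11123 entries. Pdgfra did not pass it, and Pdgfrb had no row of counts.

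The grafts were inferior vena cava of a donor mouse that had been interposed in the carotid artery of a recipient and explanted after a set time of arterial perfusion, and the controls were vena cava. All mice were labelled as male C57BL/6J, 10 to 12 weeks old, and no transgene was named for any group. By the study's methods, mice undergoing surgery were given heparin, anaesthetics with their antagonists and an analgesic, and whether the mice that gave control vena cava had received them was not stated. Whole tissue was homogenized after the anastomosis zones had been removed. A graft therefore holds donor wall together with whatever recipient cells had entered it. The groups used were control (n = 4), grafts at 1 h (n = 4) and grafts at 6 h (n = 5), and the 4 samples labelled 24 h are not analysed here. Whether each library came from a separate animal was not stated in the labels, so p-values measure the spread between these libraries. Library numbers below are the running numbers of the deposited columns within each group.

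PDGFs are secreted dimers that act through a pair of receptor tyrosine kinases. The alpha receptor binds the A, B and C chains, and the beta receptor binds mainly the B and D chains. In vessel walls they are known for recruiting pericytes and smooth muscle cells and for driving smooth muscle migration and proliferation after injury. FGFs act through FGF receptors with heparan sulfate proteoglycans as cofactors. Fgf1 and Fgf2 bind several receptor forms and lack a classical secretion signal, whereas Fgf7 and Fgf10 are made by mesenchymal cells and act mainly on epithelial cells that carry the b form of FGF receptor 2. Both families signal through adaptors, Ras and MAP kinases, and induce immediate early genes and Sprouty feedback inhibitors.

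The control libraries held 8569614 to 11029712 counted reads, the 1 h libraries 7897624 to 8359934 and the 6 h libraries 10171059 to 11816124. Levels are given as CPM, counts divided by the library total and scaled to a common size, on library sizes scaled by the trimmed mean of M values (TMM). Spread between libraries of 1 group was wide: the common biological coefficient of variation was 1.03, and log2 CPM of libraries of the same group correlated across genes at 0.68 to 0.797. Library 2 at 1 h and library 5 at 6 h stood apart on a multidimensional scaling plot. Control and 6 h libraries were run in lane 7 and 1 h libraries in lane 8, and the effects of lane and time on any difference from 1 h cannot be told apart. The endothelial markers fixed for the vessel wall summed to 351 to 488 CPM in control. At 1 h they summed to 615 to 1315 CPM and at 6 h to 649 to 1065 CPM, above every control. For contractile smooth muscle markers the sums were 421 to 749, 612 to 925 and 329 to 468 CPM in the same order. Over all libraries fat cell markers summed to 13755 to 36116 CPM and heart muscle markers to 290 to 14254 CPM. In such bulk tissue fewer cells of a type and less RNA per cell cannot be told apart.

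The promoters of 3 ligands whose libraries did not overlap between control and 6 h are shown to place them in the genome: Fgf10, the only member called, Pdgfa, which was higher at 6 h, and Pdgfd, which was lower. Each is a RefSeq window of 250 bases before and 50 after the annotated start on GRCm38.p6, 5′ to 3′ on the gene's strand, at chr13:118714449-118714748 (plus strand) for Fgf10, chr5:138994895-138995194 (minus strand) for the more upstream of the Pdgfa starts, and chr9:6168236-6168535 (plus strand) for Pdgfd. Capitals mark motif matches found on either strand.
Fgf10: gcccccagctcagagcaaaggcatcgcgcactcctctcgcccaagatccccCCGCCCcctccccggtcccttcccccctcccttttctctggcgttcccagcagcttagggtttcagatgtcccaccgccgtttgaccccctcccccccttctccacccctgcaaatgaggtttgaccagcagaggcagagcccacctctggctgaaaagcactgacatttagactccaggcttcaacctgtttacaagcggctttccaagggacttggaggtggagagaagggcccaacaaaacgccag
Pdgfa: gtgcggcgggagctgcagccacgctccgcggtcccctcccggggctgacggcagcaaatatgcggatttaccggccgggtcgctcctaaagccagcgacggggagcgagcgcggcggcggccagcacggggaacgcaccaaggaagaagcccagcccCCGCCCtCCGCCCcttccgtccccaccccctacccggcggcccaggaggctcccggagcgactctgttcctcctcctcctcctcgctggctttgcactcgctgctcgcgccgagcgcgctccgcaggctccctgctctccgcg
Pdgfd: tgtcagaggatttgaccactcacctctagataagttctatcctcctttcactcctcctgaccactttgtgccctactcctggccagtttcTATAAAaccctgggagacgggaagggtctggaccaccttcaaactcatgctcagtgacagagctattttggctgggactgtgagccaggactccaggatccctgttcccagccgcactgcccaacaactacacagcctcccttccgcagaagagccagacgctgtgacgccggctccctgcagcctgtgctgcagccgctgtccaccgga
The motifs searched were the GC box (GGGCGG), the EGR core (GCGGGGGCG), which can overlap a GC box, the AP-1 site (TGANTCA), the TATA box (TATAAA) and the CArG box by its name. The Fgf10 window held 1 GC box, the Pdgfa window 2 next to each other and the Pdgfd window 1 TATA box. These are matches of letters only, found without regard to their distance from the annotated start. Among the 32851 promoters of the same length, 35.7% held a GC box, 13.6% a TATA box, 7.8% an AP-1 site, 2.9% an EGR core and 1.6% a CArG box. The GC content was 60.7% for Fgf10, 73.3% for Pdgfa and 56.7% for Pdgfd, beside a median of 52.7% over all promoters. Fgf1, whose 6 h libraries also lay below all controls, and Pdgfrb were not looked up. RefSeq windows were matched for 7 of the 8 members looked up, Pdgfb being the other. Of those not printed, the second Pdgfa window held 1 GC box, Fgf2 held 1 GC box and 1 EGR core, Pdgfc held 1 CArG box, and the Fgf7 and Pdgfra windows held no match.

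The comparisons asked how growth factor mRNA in the graft tissue differed from control vena cava during the first hours after grafting. Storage outside the body, surgery, reperfusion and arterial pressure came together in the grafts, and their effects cannot be told apart. At 6 h Fgf10 fell against both control and 1 h and was near 0, while no other member passed the test in any comparison. The nearest to it was Pdgfa, with a mean of 5.48 ± 3.88 CPM (SD, n = 4) in control, 18.1 ± 7.81 (n = 4) at 1 h and 35.8 ± 15.1 (n = 5) at 6 h. Fgf1 had a mean of 82.2 ± 9.98 CPM in control, 35.7 ± 37.6 at 1 h and 11.2 ± 8.68 at 6 h. At 1 h no member was called by edgeR's quasi-likelihood test with Benjamini-Hochberg adjustment over all 11123 entries, none had an unadjusted p below 0.05, and DESeq2 called 0.

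**Figure D1:**
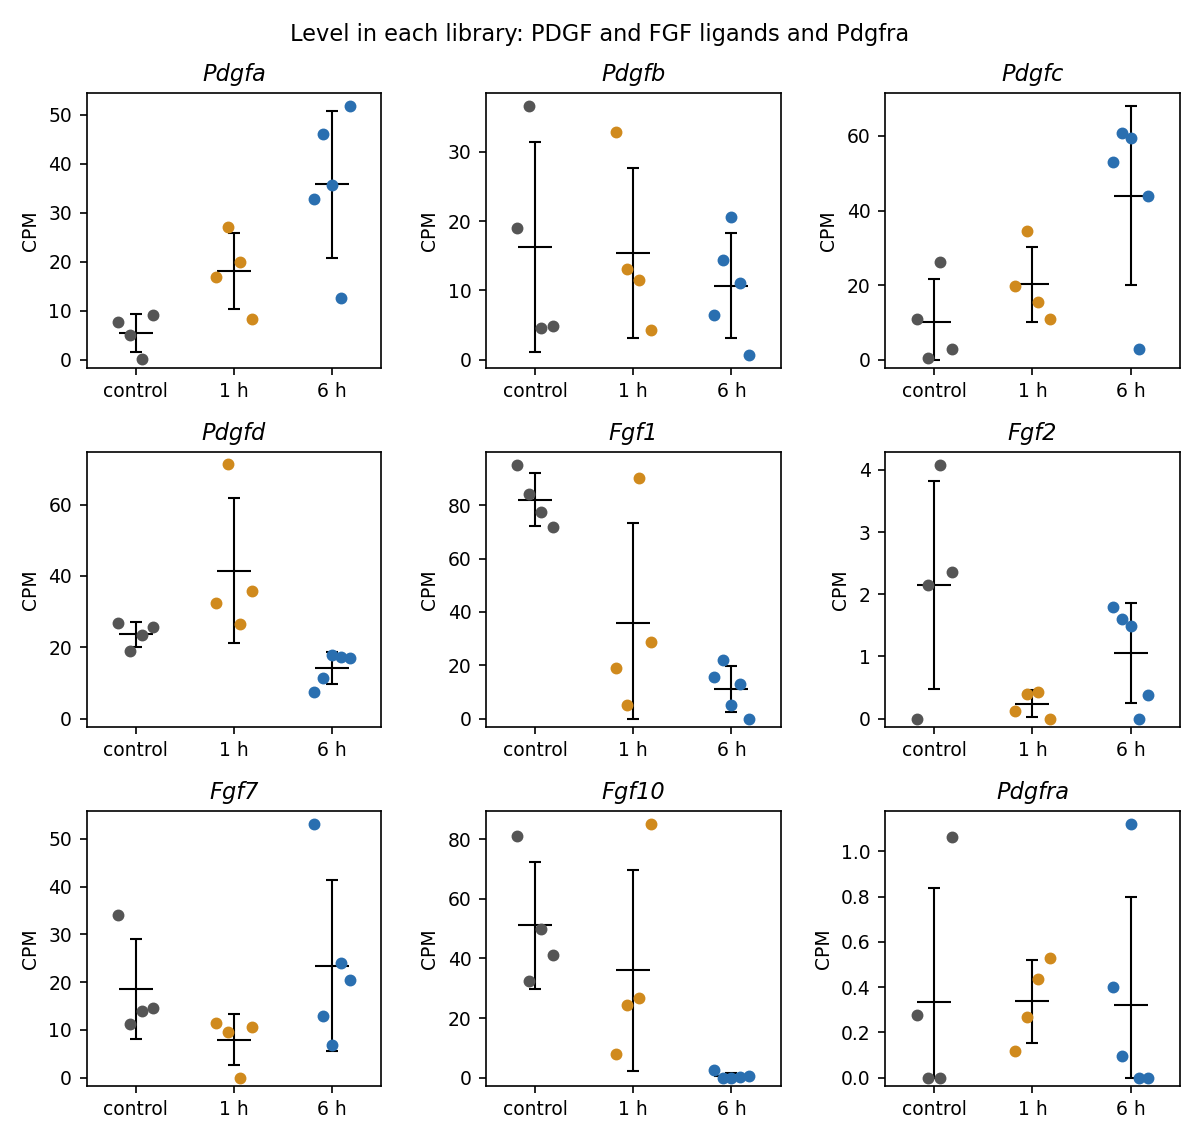
CPM (vertical axis, a scale of its own in each panel) of 9 genes in control vena cava and in grafts at 1 h and 6 h. Points are libraries, horizontal lines are group means, and bars show 1 SD with the lower bar stopped at 0. All 5 libraries of Fgf10 at 6 h lie at or below 2.49 CPM, and all 5 of Pdgfa at 6 h lie above the control maximum of 9.04 CPM.

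Fgf10, a mesenchymal ligand known for lung and limb budding and for fat cell formation, lies on mm9 at chr13:119458598-119580922 (plus strand). Its levels in the control libraries 1 to 4 were 81.1, 32.3, 49.7 and 41.2 CPM. At 1 h they were 7.82, 24.4, 26.8 and 85.0 CPM, which spanned the whole control range. At 6 h libraries 1 to 5 had 2.49, 0, 0, 0.212 and 0.504 CPM, from 25, 0, 0, 2 and 4 reads. The 6 h libraries did not overlap with those of either other group. A count of 0 allows up to 0.281 and 0.373 CPM in the libraries without a read (3 counts), which covers counting error only. The log2 fold change was -6.27 ± 1.22 (SE) at 6 h against control (edgeR, adjusted p = 0.00409) and -5.77 ± 1.20 at 6 h against 1 h (adjusted p = 0.0125). These correspond to fitted levels 77.3-fold and 54.5-fold lower. Without 6 h library 1 the values were -8.10 and -7.59, and without 1 h library 4 the second was -4.95 (adjusted p = 0.0475). Against the 1 h libraries the adjusted p was 0.0577 when the fit held only the libraries of those groups. At 1 h against control the difference was -0.50 ± 1.06 (adjusted p = 0.999), and -1.32 without 1 h library 4.

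Fgf1, a broadly acting ligand of all FGF receptors, was even among the controls. Their levels were 95.04, 84.3, 77.4 and 71.9 CPM, a coefficient of variation of 12.1%. At 1 h the 4 libraries had 19.1, 4.96, 90.1 and 28.7 CPM, so that library 3 was within the control range and the others were below it. At 6 h the 5 libraries had 15.6, 22.1, 5.23, 13.0 and 0 CPM, all below the lowest control library. The difference at 6 h against control was -2.87 ± 0.98 on the log2 scale, with a 95% confidence interval from -4.96 to -0.79, and did not pass the test (edgeR, adjusted p = 0.0951). DESeq2 called it (-2.94, adjusted p = 0.0148), and so did edgeR without the pair of libraries that stood apart (-2.55, adjusted p = 0.0153). At 1 h against control the difference was -1.20 ± 1.01 (adjusted p = 0.999), and -2.22 without 1 h library 3. At 6 h against 1 h it was -1.67 ± 0.95 (adjusted p = 0.441), and -0.65 without that library.

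Markers of the mesothelium, the cell sheet on the outer surface of the vein, were given beside Fgf1 because their levels moved with it. The match described here follows from that choice. All 6 markers listed were in the count tables and none was at 0 in all libraries of a group. They summed to 718 to 802 CPM in control. At 1 h the sums were 213, 199, 811 and 291 CPM in libraries 1 to 4, and library 3 alone lay near the control sums. At 6 h they summed to 103 to 196 CPM, with the lowest sum in library 5, which had no Fgf1 read. Of the 6 markers, 2 fell at 6 h against control. The part of these cells in the Fgf1 result was not tested.

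**Figure D2:**
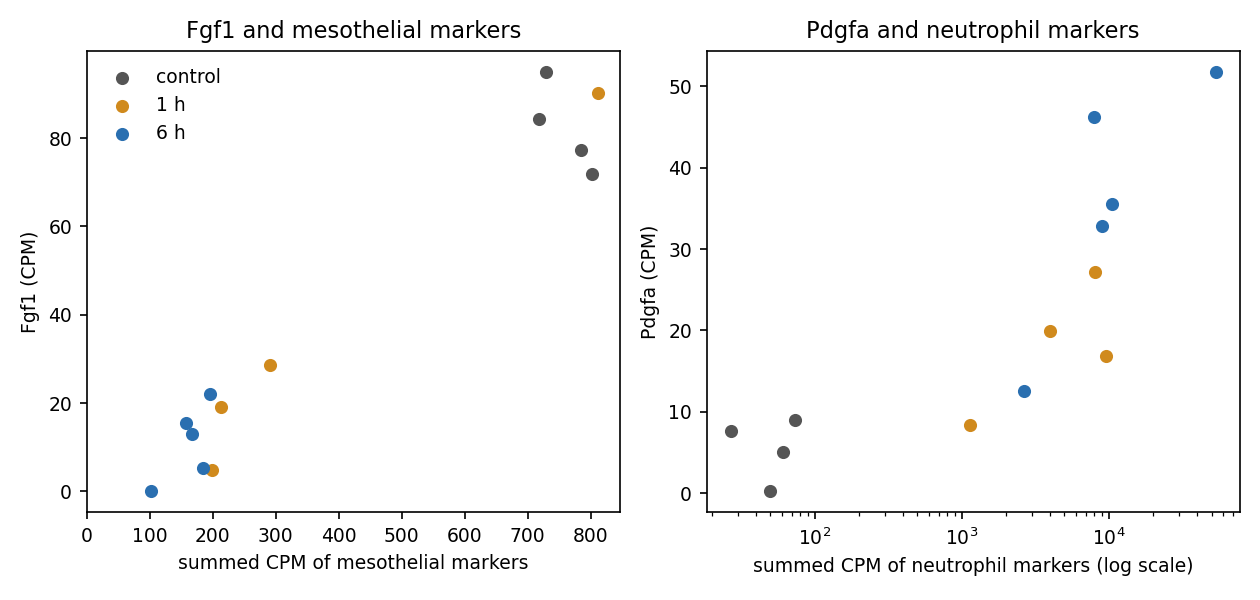
Left, Fgf1 in CPM against the summed CPM of 6 mesothelial markers, and right, Pdgfa in CPM against the summed CPM of 8 neutrophil markers on a log axis. Each point is 1 of 13 libraries, and the sums of platelet and macrophage markers are not plotted. In the left panel the 1 h library with 90.1 CPM of Fgf1 lies beside the 4 controls, and in the right panel the controls lie apart at 26.9 to 73.4 CPM of neutrophil markers.

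Fgf7, a ligand of mesenchymal cells that acts on epithelium, did not pass the test in any comparison. Its control levels were 34.0, 11.3, 14.0 and 14.5 CPM, with library 1 above the others. At 1 h they were 11.5, 9.64, 0 and 10.6 CPM, the 0 in library 3 allowing up to 0.327 CPM. At 6 h they ranged from 6.84 to 53.1 CPM around a median of 20.4. The groups overlapped, and the log2 fold change was -1.22 ± 1.11 at 1 h and 0.34 ± 1.04 at 6 h against control. Fgf2, which acts on endothelial and smooth muscle cells and is stored in the matrix, had few reads. Nudt6 lies antisense to it, and counting took no account of strand. Fgf2 had 0 to 38 reads per library in control, 0 to 4 at 1 h and 0 to 18 at 6 h, or 0 to 4.07, 0 to 0.436 and 0 to 1.80 CPM. Its differences of -3.11 ± 1.68 at 1 h and -1.02 ± 1.45 at 6 h against control had 95% intervals from -6.68 to 0.46 and from -4.11 to 2.07.

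Pdgfa, the chain that acts through the alpha receptor alone and is made by platelets, macrophages and smooth muscle cells, lies on mm9 at chr5:139451968-139473324 (minus strand). Its control libraries had 7.61, 5.06, 0.214 and 9.04 CPM. The 1 h libraries had 16.8, 27.2, 20.0 and 8.35 CPM, with 3 of the 4 above the highest control. The 6 h libraries had 32.8, 46.2, 35.6, 12.6 and 51.8 CPM, all above the controls. At 6 h against control the log2 fold change was 2.70 ± 0.88, with an interval from 0.83 to 4.58, and the adjusted p was 0.0808 (edgeR). DESeq2 called the same difference (2.65, adjusted p = 0.00463). At 1 h against control it was 1.72 ± 0.87 (adjusted p = 0.691), and at 6 h against 1 h 0.99 ± 0.82 (adjusted p = 0.647).

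Markers of platelets, neutrophils and macrophages, blood-borne cells among which Pdgfa sources are known, were set beside it. Of 10 neutrophil markers, 8 were in the tables. They summed to 26.9 to 73.4 CPM in control, 1134 to 9623 at 1 h and 2656 to 53233 at 6 h, and 6 of the 7 tested rose at each time against control. Of 10 platelet markers, 9 were in the tables. These summed to 210 to 344 CPM in control, 797 to 2665 at 1 h and 1340 to 9795 at 6 h. Against control edgeR called 3 of 9 higher at 1 h and 7 of 9 at 6 h, beside 1.12% and 5.58% of all entries. An unadjusted p below 0.05 was found for 7 and 8 of the platelet markers, and DESeq2 called 7 and 8. At 6 h against 1 h edgeR called 0 of them. The macrophage markers summed to 2296 to 4260 CPM in control, 2127 to 3482 at 1 h and 1168 to 2590 at 6 h. At 1 h 0 of 9 tested were called by edgeR, at an unadjusted p below 0.05 or by DESeq2. At 6 h against control 0 of 9 were called by edgeR, 4 had an unadjusted p below 0.05 and DESeq2 called 2. The neutrophil sums and Pdgfa had their highest 6 h value in the same library (5) and their lowest value at 1 h and at 6 h in library 4 of each group. The orders also differed in part, since the highest 1 h neutrophil sum was in library 1, the third of 4 in Pdgfa, and in control the lowest sum was in library 1 and the lowest Pdgfa level in library 3. The platelet sums were highest in 6 h library 3, in which Pdgfa was at the median of its group. The part of these cells in the Pdgfa levels was not tested.

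Pdgfc, which is secreted as a latent chain and acts mainly through the alpha receptor, had the highest coefficient of variation in control among the tested ligands, 114.6%. The control libraries had 11.0, 0.375, 26.2 and 2.96 CPM, from 4 to 244 reads. At 1 h they had 19.8, 34.4, 15.6 and 11.0 CPM. At 6 h libraries 1, 2, 3 and 5 had 53.1, 60.9, 59.3 and 43.8 CPM and were above every control, while library 4 had 2.76 CPM. The log2 fold change at 6 h was 2.12 ± 1.01 (edgeR, adjusted p = 0.255), and the interval reached from -0.02 to 4.26. Without control library 3 it was 3.20 (adjusted p = 0.134), and the difference at 1 h went from 1.00 to 2.08. That same library 4 was also the lowest of its group for Pdgfa.

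Pdgfd, the chain that binds the beta receptor and is likewise activated by proteolysis, lies on mm9 at chr9:6168612-6378843 (plus strand) and was even in control at 26.9, 18.9, 23.4 and 25.6 CPM. At 1 h it was at 32.5, 71.4, 26.4 and 35.7 CPM, and at 6 h at 7.48, 11.4, 17.8, 17.2 and 16.9 CPM. The 6 h libraries lay below all libraries of both other groups. The difference was -1.55 ± 0.53 at 6 h against 1 h (edgeR, adjusted p = 0.145) and -0.74 ± 0.53 at 6 h against control (adjusted p = 0.499). DESeq2 called the first of these (-1.63, adjusted p = 0.00431). The 71.4 CPM at 1 h were in library 2, which stood apart.

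Pdgfb, which endothelial cells release to recruit mural cells and which platelets carry as protein, showed no direction that held. The control libraries had 18.99, 36.6, 4.61 and 4.86 CPM, the 1 h libraries 32.9, 13.1, 11.5 and 4.23 CPM and the 6 h libraries 6.48, 14.4, 20.5, 11.1 and 0.63 CPM. The groups overlapped throughout. The log2 fold change was -0.08 ± 1.05 at 1 h and -0.61 ± 0.99 at 6 h against control, with 95% intervals from -2.31 to 2.15 and from -2.72 to 1.5. Without control library 2 these were 0.73 and 0.18.

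**Figure D3:**
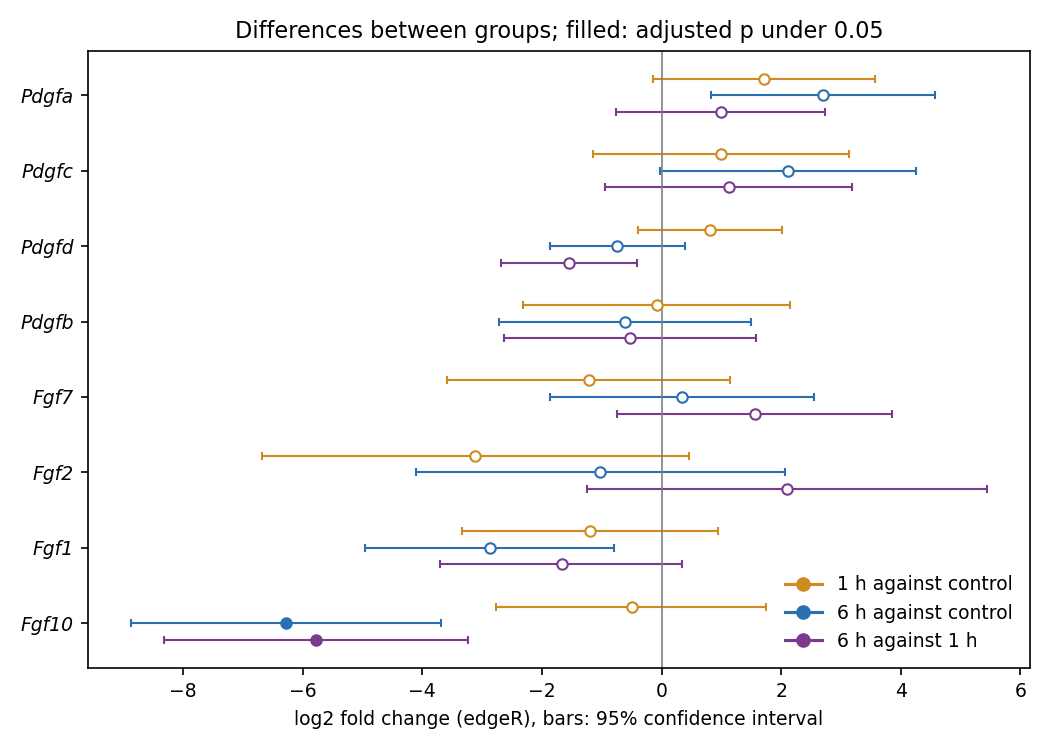
Log2 fold changes of the 8 tested ligands (horizontal axis) for 1 h against control, 6 h against control and 6 h against 1 h, with 95% confidence intervals as bars. Filled symbols have an adjusted p below 0.05 and are Fgf10 at 6 h against control (-6.27) and against 1 h (-5.77), and the intervals of the 4 PDGF ligands against control span 0 except that of Pdgfa at 6 h (0.83 to 4.58).

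Counts of calls were read against the whole table. At 1 h against control 1.12% of all entries were called higher and 0.00899% lower, and in 3.55% and 2.09% the libraries did not overlap upward or downward, while 0 of the 8 members met any of these. At 6 h against control 5.58% of entries were called higher and 1.59% lower, beside 0 and 1 of 8 members. The libraries did not overlap for 1 member upward (Pdgfa) and 3 downward (Fgf1, Fgf10 and Pdgfd), beside 9.23% and 5.32% of all entries. At 6 h against 1 h 2.63% were called higher and 1.02% lower, beside 0 and 1 of 8, and 0 members were apart upward and 2 downward (Fgf10 and Pdgfd), beside 6.49% and 3.13%. At an unadjusted p below 0.05 there were 0, 3 and 2 of the 8 members in these comparisons, beside 7.97%, 20.1% and 15.6% of all entries. The median log2 fold change of the 8 was -0.29, -0.68 and 0.23, and that of all entries -0.04, -0.05 and 0.00. By family, the medians at 6 h against control were 0.75 for the 4 PDGF ligands and -1.95 for the 4 FGF ligands, neither of which was tested as a list.

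Divided by the length of the longest coding transcript, the order of mean levels in control was Fgf1 (20.6 CPM per kb), Fgf10 (12.4), Pdgfd (7.76), Fgf7 (6.92), Pdgfb (5.58), Pdgfc (2.88), Pdgfa (2.66) and Fgf2 (1.73). At 6 h it was Pdgfa (17.4 CPM per kb), Pdgfc (12.5), Fgf7 (8.77), Pdgfd (4.64), Pdgfb (3.65), Fgf1 (2.81), Fgf2 (0.849) and Fgf10 (0.156). Fgf1 and Fgf10 had the highest means in control, and Pdgfa and Pdgfc at 6 h. The library ranges of neighbours in each order overlapped.

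The receptors could not be followed. Pdgfra, the alpha receptor that marks fibroblasts in most tissues, had 0 to 14 reads in control, 1 to 5 at 1 h and 0 to 9 at 6 h, or 0 to 1.12 CPM over all 13 libraries. Pdgfrb, the beta receptor of pericytes and smooth muscle cells, had 2 transcript entries in the authors' table of mean normalized counts, both at 0. Fibroblast markers nevertheless summed to 2605 to 7345 CPM and mural cell markers to 207 to 1516 CPM in the same libraries. The highest mural sum, in 6 h library 2, held 1154 CPM of Des, and that library also had the highest heart muscle sum (14254 CPM). In all other libraries the mural sum was at most 826 CPM. Reads had been counted per transcript entry with HTSeq, which by default leaves out a read that overlaps several entries, and the overlap setting was not given. Over that whole table the 19127 symbols with 1 entry had a median mean of 19.2 normalized counts, and 9.2% of them were at 0. The 4025 symbols with 2 or more entries had a median of 0.8 and 25.5% at 0, and 78.1% of them, beside 45.7% of the others, had a summed mean below 10. All 8 tested members had 1 entry, whereas Pdgfra and Pdgfrb had 2 each. For both receptors low expression and loss of shared reads in counting cannot be told apart.

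**Figure D4:**
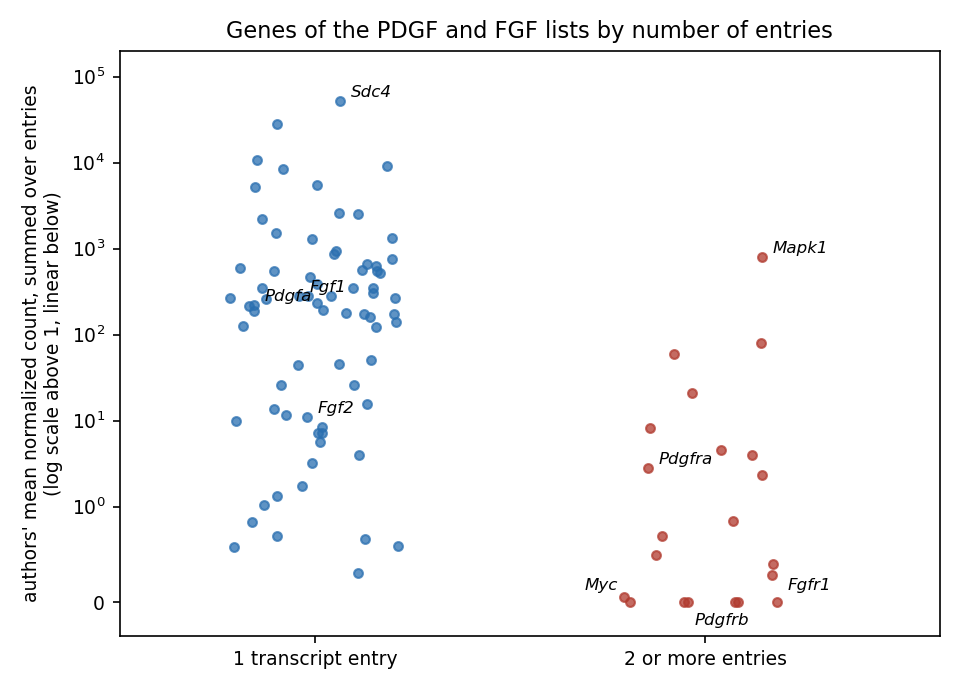
Genes of the PDGF and FGF lists by whether the authors' table has 1 transcript entry or 2 or more for the symbol (horizontal position, spread at random within each column), against the authors' mean normalized count summed over entries (vertical axis, log scale above 1 and linear below). Pdgfrb and Fgfr1 lie at 0 and Pdgfra at 2.81 among the symbols with several entries, and Fgf2 lies at 11.0 among those with 1.

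The FGF receptors, the signalling kinases of that family, were similarly low. The 3 entries of Fgfr1 were at 0, and Fgfr2, Fgfr3 and Fgfrl1, each with several entries, had summed means of 2.35, 0.281 and 0.845 normalized counts. Fgfr4, with 1 entry, had 1.35. Klb, a coreceptor for the hormone-like FGFs that is known from liver and fat, was the only 1 of 7 receptor and coreceptor genes tested. It had 24.2 to 64.2 CPM in control, 25.8 to 174 at 1 h and 0 to 23.5 at 6 h. The libraries at 6 h lay below all others, and the difference of -3.15 ± 1.42 against control did not pass the test (edgeR, adjusted p = 0.224). Of the 6 h libraries only library 3 was above 0.252 CPM, and without it the difference was -8.46 (adjusted p = 0.000152). Of 18 other FGF ligands 4 were tested (Fgf9, Fgf12, Fgf18 and Fgf21), and in each comparison 0 were called by edgeR, 0 had an unadjusted p below 0.05 and 0 were called by DESeq2.

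Among 16 genes that process, bind or present the ligands, 13 were tested. At 1 h edgeR called 0, with 2 at an unadjusted p below 0.05 and 0 by DESeq2, while at 6 h against control 2 rose and 1 fell. Sdc4, which encodes syndecan 4, a heparan sulfate coreceptor for FGFs, was at 455 to 822 CPM in control, 793 to 1670 at 1 h and 15885 to 19530 at 6 h. It rose by 4.74 ± 0.29 on the log2 scale at 6 h (edgeR, adjusted p = 3.51e-08). Plat, tissue plasminogen activator, which cleaves latent PDGF-CC, went from 76.4 to 139 CPM in control to 359 to 779 at 6 h (2.35 ± 0.31, adjusted p = 0.000118). Nrp1, neuropilin 1, which binds several growth factors, fell from 350 to 433 CPM to 137 to 247 (-1.03 ± 0.22, adjusted p = 0.00919). Against 1 h the same 3 genes were called in the same directions. Sparc, a matrix protein that binds PDGF, was also lower in that comparison (-0.82 ± 0.21, adjusted p = 0.0423) and was called in 9 of 21 alternatives. The list's median log2 fold change at 6 h against control was 0.11.

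Among 26 adaptor and relay genes 21 were tested. At 1 h against control edgeR called 0, 2 had an unadjusted p below 0.05 and DESeq2 called 0. At 6 h against control edgeR called 1, 3 had an unadjusted p below 0.05 and DESeq2 called 2. At 6 h against 1 h these counts were 0, 4 and 2. The only edgeR call was Sos2, an exchange factor that activates Ras. It had 10.3 to 18.3 CPM in control and 25.2 to 83.3 at 6 h (1.96 ± 0.49, edgeR, adjusted p = 0.0211). It was called in 16 of 21 alternatives. Without control library 2 or 3, or without 6 h library 2 or 5, no gene of this list was called at 6 h. The median of the list was 0.38 at 6 h. As for the receptors, Ptpn11 and Src, with 2 entries each, were at 0 in the authors' table.

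Among 16 genes that growth factor signalling is known to induce, 12 were tested. Against control 3 of the 12 rose at 1 h and 5 at 6 h, and none was called lower. An unadjusted p below 0.05 was found for 5 at 1 h and 7 at 6 h, and DESeq2 called 3 and 7. Their median log2 fold change was 1.31 at 1 h and 2.74 at 6 h. Fos, an AP-1 subunit, went from 14.7 to 121 CPM in control to 3155 to 3823 at 1 h (6.19 ± 0.64, edgeR, adjusted p = 4.15e-05). Egr1, a zinc finger factor, went from 24.1 to 282 CPM to 1612 to 2936 (4.45 ± 0.60, adjusted p = 0.000505). Ier3, an early response gene, was higher at 1 h (3.12 ± 0.20) and higher again at 6 h than at 1 h (1.59 ± 0.18, adjusted p = 0.000143). Fos and Egr1 were lower at 6 h than at 1 h, at 594 to 1418 and 1117 to 1325 CPM, in libraries that did not overlap, and these differences did not pass the test (-1.81 ± 0.49, adjusted p = 0.0526, and -0.90 ± 0.49, adjusted p = 0.414). Against control both were still called at 6 h (4.38 ± 0.58 and 3.55 ± 0.56). The list's median at 6 h against 1 h was -0.11. The feedback inhibitor Spry2 was at 64.6 to 318 CPM in control, 285 to 426 at 1 h and 1028 to 1858 at 6 h, and rose by 3.18 ± 0.42 at 6 h (adjusted p = 0.000131). Spry4 rose by 2.35 ± 0.36 at 6 h (adjusted p = 0.000507). Dusp6 and Etv5, likewise known as targets of FGF signalling, were at 50.2 to 137 and 0.468 to 8.15 CPM in control and at 82.1 to 241 and 1.24 to 7.63 CPM at 6 h, and were not called. Spry1 and Spred1 had higher means at 6 h than in control and were not called either. Their differences were 1.85 ± 0.62 (edgeR, adjusted p = 0.0876) and 3.12 ± 1.21 (adjusted p = 0.144). The summed level of the list was 1054 CPM in control library 1 and 303 to 484 CPM in the other controls. Without that library the values were 7.26 for Fos and 5.68 for Egr1 at 1 h, 5.44, 4.76 and 3.93 for Fos, Egr1 and Spry2 at 6 h, and 2.06 for Spry2 at 1 h, which was then called (adjusted p = 0.000888, beside 1.29 and 0.231 with all libraries). These genes respond to many stimuli, and which ligand moved them was not tested.

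For Pdgfa and Pdgfb, and after their values were seen for Fgf1, Fgf10 and Pdgfd, the genes with the most similar levels were listed by Spearman's rho of log2 CPM over the 13 libraries, among 8849 entries with a mean of at least 50 counts. The libraries share their groups and their scaling, so these values are descriptions. Pdgfa ranked with Trem1 (0.956), Actb (0.951), Clec4e (0.951), Ifitm6 (0.934) and Gdf15 (0.929), of which Trem1 and Clec4e are known from neutrophils and macrophages. Fgf10 ranked with Ppm1k (0.955), Gtf3c3 (0.935), Gys1 (0.911), Mcur1 (0.902) and Cpt2 (0.902), of which Ppm1k, Gys1 and Cpt2 serve amino acid, glycogen and fatty acid metabolism. Pdgfd ranked with Eln (0.907), Sdpr (0.907), Dennd6a (0.89), Higd1b (0.883) and Nrp1 (0.879). Fgf1 ranked with Eri3 (0.951) and Cxadr (0.934), and Pdgfb with Sytl4 (0.945) and Mapkap1 (0.874).

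Other markers were set beside the members that were lower at 6 h. Counts were held for 6 of 8 contractile, 6 of 9 fat cell and 9 of 10 mural cell markers. The same held for 9 of 10 endothelial and 5 of 6 heart muscle markers. Missing were Myh11, Smtn, Plin1, Lipe, Abcc9, Eng and Tnnt2, each with 2 or more entries, and Ucp1 with 1. The sum of 12 fibroblast markers was 3193 to 4898 CPM in control, 5205 to 7345 at 1 h and 2605 to 3442 at 6 h, with 2 of 12 (Col3a1 and Cd248) lower at 6 h against control and 6 of 12 lower against 1 h. DESeq2 called 5 and 10 in these comparisons. The sum of 6 fat cell markers was 15935 to 22810 CPM in control and 13755 to 25853 at 6 h. Most of that sum was Fabp4, with means of 12676 and 16935 CPM. Of the 6, edgeR called 1 lower at 6 h against control (Adrb3) and DESeq2 called 2. An unadjusted p below 0.05 was found for 4, all lower (Adrb3, Pparg, Cidec and Adipoq), while Lep and Fabp4 had higher means at 6 h. The median log2 fold change of the list was -0.55. Of 9 mural cell markers edgeR called 1 lower at 6 h against control (Anpep) and 0 against 1 h, while in each of these comparisons 4 had an unadjusted p below 0.05 and DESeq2 called 4. Of 9 endothelial markers 1 was higher at 6 h against control (Cdh5). At 1 h edgeR called 0 of them, 2 had an unadjusted p below 0.05 and DESeq2 called 1. Of 6 contractile markers 0 were called against control (2 at an unadjusted p below 0.05, 1 by DESeq2) and 2 were lower against 1 h (Acta2 and Tagln). Of 5 heart muscle markers 0 were called at 6 h against control (1 unadjusted, 1 by DESeq2). The part of these cells in the levels of Fgf10 and Pdgfd was not tested.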

How the data were processed

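mRNA from control vena cava and vein grafts was amplified with a low-input SMARTer kit and sequenced as single 50 bp reads by the authors, who mapped reads to mm9 with gsnap (at most 10 mismatches) and counted them without strand per RefSeq transcript with HTSeq 0.5.4p3. Count rows lacking an adjusted p in the authors' comparisons were absent from the tables. The authors' tables hold raw counts, which were used, and their own comparisons (fold changes and p-values), which were not. From a table of all 29994 entries only the authors' mean normalized counts (signal per entry, deposited after DESeq2 1.14.1 scaling) were used. The 30 columns named 24 h over all tables, 5 raw counts per table for 4 labelled samples, were not used. Of 886 entries without a symbol 803 were named from RefSeq.

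Counts of 13 libraries were fitted together with edgeR 4.0.16 in R 4.3.3 (filterByExpr, TMM, robust quasi-likelihood, 2-sided, adjusted p under 0.05), after the script had been tested on simulated data. DESeq2 1.42.0, other scalings and filters, summed entries and leaving out each library were alternatives. Groups came from the labelled perfusion time. The gene named for a symbol was the entry with most reads. All 10 members were described, and from the pathway lists every gene called, at most 4 per comparison and direction. Some genes that edgeR did not call, such as Dusp6 and Etv5, were named as well. The 5 most similar genes were to be listed for both receptors too, which had too few reads. Members and lists were chosen with earlier results of these data known.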

Additional observations from a re-analysis of the deposited data

Results flagged for a closer look

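In 27 sets (9 genes in 3 groups) the gap between the highest or lowest library and the next was compared with Dixon's limit. Chance passes this limit in about 1 of 20 sets when values are normally distributed, which was not tested for these CPM. Of the sets, 3 passed. Fgf7 was 34.0 CPM in control library 1, above the other controls at 11.3 to 14.5. Fgf7 was 0 CPM in 1 h library 3, below 9.64 to 11.5 in the others. Fgf10 was 2.49 CPM in 6 h library 1, above 0 to 0.504 in the others, and without that library the log2 fold change of Fgf10 at 6 h against control was -8.10.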

How the results depend on the processing

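Fgf10 at 6 h against control was called in 21 of 21 alternatives (log2 fold change -8.10 to -5.95, adjusted p from 7.94e-09 to 0.0152) and at 6 h against 1 h in 20 of 21, the exception being the fit on the libraries of those groups only (-5.81, adjusted p = 0.0577), where 0 of 7 members were called. DESeq2 called 3 members at 6 h against control (Pdgfa, Fgf1, Fgf10) and 2 at 6 h against 1 h (Pdgfd, Fgf10). Leaving out both libraries that stood apart, chosen after seeing the data, gave 2 at 6 h against control. Direction turned only when 1 library was left out: for Pdgfb over ranges of -0.76 to 0.73 at 1 h, -0.99 to 0.18 at 6 h and -0.91 to 0.15 at 6 h against 1 h, and for Fgf7 over -0.21 to 0.81 at 6 h against control. The cause was not tested. Mean Fgf1 in control was 93.6 CPM on library totals.

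In the pathway lists, library totals gave 5 calls for ligand processing genes and 0 for relay genes at 6 h against control. DESeq2 gave 2 relay genes at 6 h against each other group, 5 target genes at 6 h against 1 h and 1 receptor gene (Klb) there, and the fit on those groups only gave 5 target genes. Leaving out 1 library gave 0 to 2 relay genes at 6 h against control and 0 to 1 receptor genes in both comparisons at 6 h. Library totals moved the median of all entries at 6 h against control from -0.05 to -0.46 and the calls from 621 higher and 177 lower to 453 and 604. DESeq2 made 1031 and 565 calls, and at 1 h 289 and 45 beside 125 and 1. At 6 h against 1 h the calls were 293 and 113, 171 and 239 on library totals, and 536 and 378 by DESeq2. Comparisons with 24 h were not run, and Fgf2 gave no value in up to 2 alternatives. No paired analysis was possible because the column numbers tie no libraries across groups.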
